A study of Danio rerio with 9 samples.

Results

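The genes described here encode enzymes that make or remove retinoic acid: *aldh1a3*, a retinaldehyde dehydrogenase, and *cyp26b1* and *cyp26c1*, cytochrome P450 enzymes that oxidize retinoic acid. They were picked by name, with earlier results of these arrays known, as the array transcripts whose RefSeq mRNA identifier belongs to 1 of these 3 genes. Each gene had 1 such transcript (NM_001044745, NM_212666 and NM_001029951), so 3 of the 2663 transcripts with an assigned gene, and of 37176 transcripts in all, are members. The study compared posterior tissues of zebrafish larvae of the wild-type AB strain on 9 NimbleGen arrays with 1 color. In the cut group (5 arrays), tail fins were removed behind the notochord at 2 days post fertilization (dpf), and the tissue was collected at 3 dpf, which is 1 day post amputation (dpa). The uncut group (4 arrays) came from siblings without amputation, collected at 3 dpf as well. RNA of about 150 tails per condition was amplified before labeling, and neither the labels nor the methods say whether the arrays of a condition are separate pools of tails. If they are not, the spread behind the p-values given here may be technical only.

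Retinoic acid is made from vitamin A in a pair of steps: retinol is oxidized to retinal, and retinal is oxidized to retinoic acid by aldehyde dehydrogenases of the Aldh1a family. Cyp26 enzymes oxidize retinoic acid to products that are cleared, so tissue that makes Cyp26 is shielded from the signal. Within the nucleus, retinoic acid binds receptors of the RAR family, which pair with RXR receptors on DNA and change the transcription of target genes, among them *Hox* genes. In zebrafish, retinoic acid signaling is known for its part in fin regeneration, in hindbrain patterning and in the developing eye.

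In cut tails, the synthesis gene *aldh1a3* was higher than in uncut tails by 0.90 on the log2 scale (SE 0.15), a fold change of 1.86 (95% confidence interval 1.49 to 2.33). Neither breakdown gene passed the test. *cyp26c1* had a log2 fold change of -0.86 (SE 0.29), and *cyp26b1* had one of -0.25 (SE 0.18). Values are the log2 expression values that the authors obtained after background correction and normalization, and a difference of 1 is a doubling. A transcript was called where its fold change reached 1.5 and its p from limma, adjusted over all transcripts (Benjamini-Hochberg), did not exceed 0.1. By this rule 0.468% of all transcripts were higher and 0.229% lower in cut tails (174 and 85 transcripts, and 142 and 109 with each array centered on its median). Of the 3 members, 1 was thus called higher and 0 were called lower, and at an unadjusted p under 0.05 from limma, 1, *cyp26c1*, was lower.

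*aldh1a3* had log2 values of 6.76, 7.24, 7.32, 7.30 and 6.87 in cut replicates 1 to 5, against 6.06, 6.25, 6.33 and 6.17 in uncut replicates 1 to 4. All 5 cut arrays lay above all 4 uncut arrays, and the lowest cut value, in replicate 1, exceeded the highest uncut value by 0.44. Among all transcripts, 2.83% had every cut array above every uncut array. Cut tails averaged 7.10 ± 0.26 (SD, n = 5) and uncut tails 6.20 ± 0.11 (SD, n = 4). The adjusted p was 0.0399 from limma. An exact permutation test (two-sided, as throughout) gave p = 0.00794, the lowest that the 126 ways of dividing the 9 arrays permit. Among the transcripts with an assigned gene, *aldh1a3* ranked 9 of 2663 by p-value and 35 of 2663 by the size of its rise. The transcript was dim: its mean over the 9 arrays lay at percentile 22.0 of all transcripts. This position also holds how well its probes bind, and the values alone do not show whether it exceeds background.

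The call of *aldh1a3* rested on a margin that single arrays could move. With each array left out in turn, the log2 fold change ran from 0.84 to 0.98, and the gene was called in 5 of 9 cases. Without cut replicate 2 its adjusted p was 0.117, without cut replicate 4 it was 0.102, without uncut replicate 2 it was 0.157, and without uncut replicate 4 it was 0.165 (all limma). The size of the rise therefore moved little, while the adjusted p crossed the limit of 0.1.

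**Figure D1:**
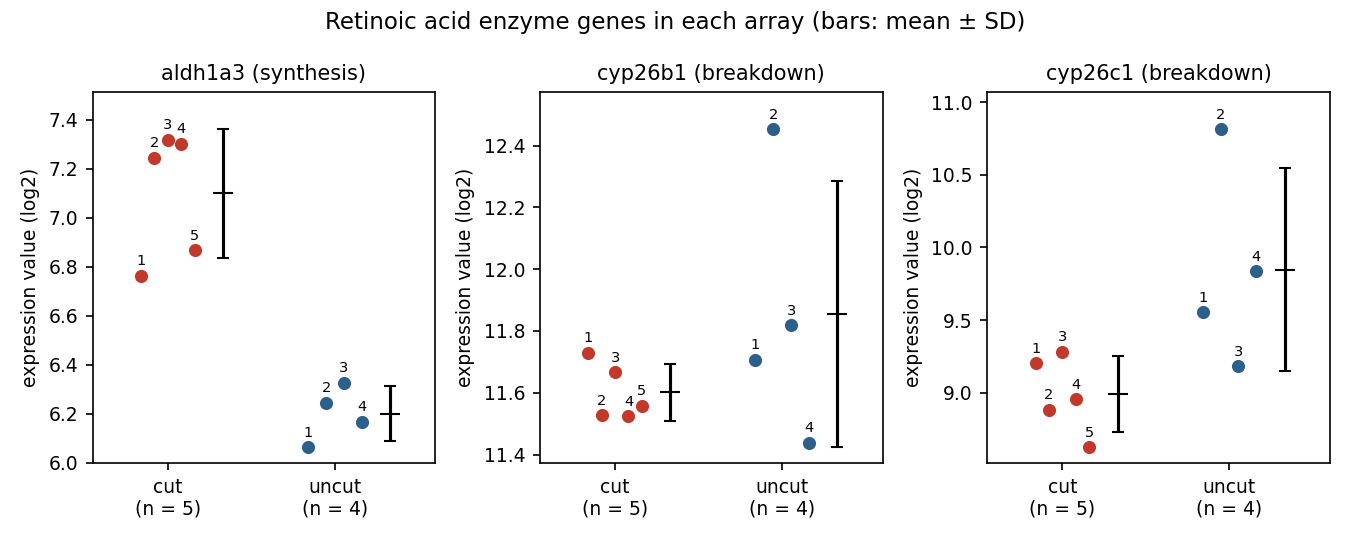
Log2 expression value (vertical axes, a scale of its own for each gene) of *aldh1a3*, *cyp26b1* and *cyp26c1* in 5 cut and 4 uncut arrays. Points are arrays with their replicate number, and bars are the mean ± SD. The cut values of *aldh1a3* run from 6.76 to 7.32, all above the uncut values of 6.06 to 6.33, while the groups overlap for both breakdown genes.

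Of the breakdown genes, *cyp26c1* had the larger difference between the groups. It had log2 values of 9.20, 8.88, 9.28, 8.95 and 8.62 in cut replicates 1 to 5, against 9.55, 10.82, 9.18 and 9.84 in uncut replicates 1 to 4. All 5 cut arrays lay below the uncut mean, and 3 of the 5 lay below every uncut array, but cut replicates 1 and 3 were above uncut replicate 3, so the groups overlapped. Among all transcripts, 1.89% had every cut array below every uncut array. Cut tails averaged 8.99 ± 0.26 (SD, n = 5) and uncut tails 9.85 ± 0.70 (SD, n = 4), and the fold change of 0.552 had a 95% confidence interval of 0.352 to 0.864. The unadjusted p was 0.0143 and the adjusted p 0.278 (limma), and the exact permutation test gave p = 0.0238. At an unadjusted p under 0.05, 5.71% of all transcripts were lower in cut tails. By the size of the difference alone, *cyp26c1* ranked 7 of 2663 among the falls of transcripts with an assigned gene.

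A large share of the *cyp26c1* difference came from uncut replicate 2, the highest value of the gene on any array. Without that array, *cyp26c1* differed by -0.54 on the log2 scale (SE 0.20, limma adjusted p = 0.585), 1.6 times less than with all arrays. Without uncut replicate 3, whose value lay within the cut range, it was -1.08 (SE 0.28, adjusted p = 0.118). With arrays weighted by how well they fitted the model, it was -1.06 and passed the threshold (adjusted p = 0.0589), which is 1 of the 24 alternatives run for this gene. In the fit of all 9 arrays without weights, *cyp26c1* was thus not called, since its p did not pass once adjusted over all transcripts.

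*cyp26b1* had log2 values of 11.73, 11.53, 11.67, 11.52 and 11.56 in cut replicates 1 to 5, against 11.71, 12.45, 11.82 and 11.44 in uncut replicates 1 to 4. The groups overlapped: uncut replicate 4 lay below every cut array, and uncut replicate 2 lay above all others. Cut tails averaged 11.60 ± 0.092 (SD, n = 5) and uncut tails 11.85 ± 0.43 (SD, n = 4). The fold change of 0.839 had a 95% confidence interval of 0.633 to 1.11 (limma adjusted p = 0.630; exact permutation p = 0.222). A fall of 1.5-fold lies within this interval, and a rise of 1.5-fold lies outside it. Without uncut replicate 2 the log2 fold change was -0.053 (adjusted p = 0.949), and without uncut replicate 4 it was -0.39 (adjusted p = 0.668).

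The members differed in how much they varied within a group. The 5 cut arrays of *cyp26b1* spanned 0.21 on the log2 scale and its 4 uncut arrays 1.02. For *cyp26c1* the spans were 0.66 in cut arrays and 1.63 in uncut arrays, and for *aldh1a3* they were 0.55 in cut arrays and 0.26 in uncut arrays. The values of the breakdown genes were thus more scattered in uncut arrays, and those of *aldh1a3* in cut arrays. For the breakdown genes this rested largely on uncut replicate 2. The other uncut arrays ran from 9.18 to 9.84 for *cyp26c1* and from 11.44 to 11.82 for *cyp26b1*. Set against transcripts of about the same mean value (within 0.25 on the log2 scale), the SD within groups was 0.50 for *cyp26c1*, where the median transcript had 0.29, and 0.29 for *cyp26b1*, where it was 0.23. For *aldh1a3* it was 0.21, where the median was 0.28. Uncut replicate 2 had the highest value of both breakdown genes, but its value of *aldh1a3* lay between those of the other uncut arrays.

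The balance of synthesis over breakdown was described as the log2 value of *aldh1a3* minus that of a breakdown gene on the same array. It leaves out the synthesis gene *aldh1a2* and the breakdown gene *cyp26a1*, which had no assigned transcript. The balance is therefore that of the member genes, not of the whole tissue. Its level also holds how well the probes of each gene bind, so only its difference between the groups can be read. It is given without a p-value, since the genes were chosen with results of these arrays known and *aldh1a3* alone already separated the groups. Against *cyp26b1*, the difference was -4.97, -4.28, -4.35, -4.22 and -4.69 in cut replicates 1 to 5, against -5.64, -6.21, -5.49 and -5.27 in uncut replicates 1 to 4. All 5 cut arrays lay above every uncut array, and the group means differed by 1.15 (-4.50 ± 0.32 in cut tails and -5.65 ± 0.40 in uncut tails, SD). Against *cyp26c1*, it was -2.44, -1.64, -1.97, -1.65 and -1.76 in cut replicates 1 to 5, against -3.49, -4.57, -2.86 and -3.67 in uncut replicates 1 to 4. Here, too, the groups did not overlap, and the means differed by 1.76 (-1.89 ± 0.33 in cut tails and -3.65 ± 0.71 in uncut tails, SD). How often differences between other transcripts separate the groups was not taken. Taken against the mean of both breakdown genes, the groups differed by 1.45. Of this, 0.90 is the change of *aldh1a3* itself, and the rest is the mean of -0.25 and -0.86 with the sign turned.

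**Figure D2:**
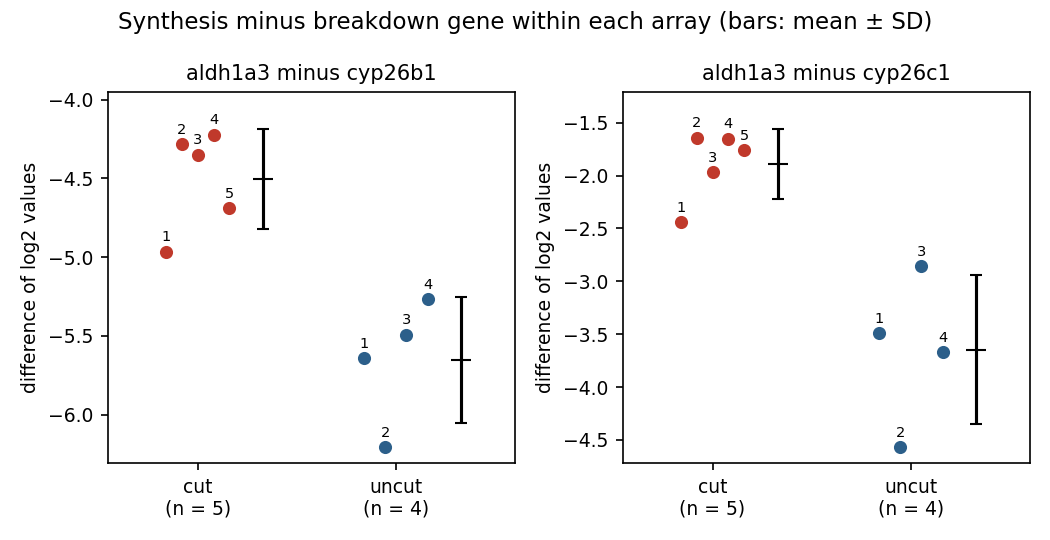
Log2 value of *aldh1a3* minus that of *cyp26b1* (left) and of *cyp26c1* (right) within each array (vertical axes), for 5 cut and 4 uncut arrays. Points are arrays with their replicate number, and bars are the mean ± SD. Cut arrays lie higher in both panels, by 1.15 and 1.76 in the means.

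Of 87 other genes of a list of the retinoid pathway, 13 had an array transcript that could be assigned to them. Of the 13, 0 were called higher and 0 lower by limma, and at an unadjusted p under 0.05, 1 was higher and 0 were lower. Their log2 fold changes ran from -0.20 to 0.86 with a median of 0.14, and 11 were above 0. The median was 0.04 over all transcripts and 0.08 over transcripts with an assigned gene. Both of these medians also lay above 0, and the share of transcripts above 0 was not taken. For 6 of the 13, the 95% confidence interval included a rise of 1.5-fold, so the count of 0 does not show that these genes were unchanged. No transcript could be assigned to the synthesis gene *aldh1a2*, to the third breakdown gene, *cyp26a1*, or to the listed carriers of retinoic acid. The same held for most other listed genes, among them the target *tgm2l*, and these were not analysed here. From the same arrays, the paper lists *aldh1a2* and *tgm2l* among its upregulated genes, beside the member *aldh1a3*. The counts of 0 thus cover only the 13 assigned genes, not the pathway.

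For the uptake and storage of vitamin A, 2 genes were measured. *rbp5*, which encodes a cellular retinol-binding protein, had the 1 unadjusted p under 0.05. Its log2 value averaged 11.70 ± 0.18 (SD, n = 5) in cut tails against 11.38 ± 0.24 (SD, n = 4) in uncut tails, a difference of 0.33 (SE 0.14, limma adjusted p = 0.399). At an unadjusted p under 0.05, 6.46% of all transcripts were higher in cut tails. *bco1l*, which encodes an enzyme related to the one that splits beta-carotene into retinal, had a log2 fold change of 0.02, which was -0.026 after quantile normalization and -0.034 with arrays centered on their median.

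For the step between retinol and retinal, 4 genes were measured. The retinol dehydrogenase genes *rdh8a* and *rdh8b* had log2 fold changes of 0.21 and 0.26, *dhrs4*, which encodes a reductase of the same superfamily, had one of 0.14, and *adh8a*, which encodes an alcohol dehydrogenase, had one of -0.20. Their adjusted p ran from 0.578 to 0.754. With single arrays left out, the log2 fold change ran from 0.10 to 0.33 for *rdh8a*, from 0.09 to 0.35 for *rdh8b*, from 0.09 to 0.24 for *dhrs4* and from -0.28 to -0.15 for *adh8a*. The 2 receptor genes that were measured, *rargb* and *rxrga*, had log2 fold changes of 0.10 (SE 0.15) and 0.25 (SE 0.15). These ran from 0.02 (without cut replicate 4) to 0.18 (without cut replicate 2) for *rargb* and from 0.18 to 0.36 for *rxrga* with single arrays left out.

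Of the listed target genes, 5 were measured. The homeobox gene *meis2b* had the largest log2 fold change of the 13, at 0.86 (SE 0.54, limma adjusted p = 0.565). Its values were 8.76, 9.15, 11.77, 9.04 and 9.18 in cut replicates 1 to 5, against 8.30, 8.94, 8.79 and 8.85 in uncut replicates 1 to 4. Cut replicate 3 stood apart, and without it the log2 fold change was 0.31 (adjusted p = 0.513, and 0.307 to 0.857 over all alternatives run for this gene). The transglutaminase genes *tgm2a* and *tgm2b* had log2 fold changes of 0.13 and 0.28, and the homeobox genes *meis3* and *cdx1a* had 0.08 and -0.02. Without cut replicate 3 that of *meis3* was -0.084. With single arrays left out, *tgm2a* ran from 0.07 (without uncut replicate 2) to 0.20 (without cut replicate 4), *tgm2b* from 0.20 to 0.38, and *cdx1a* from -0.10 (without cut replicate 5) to 0.039 (without cut replicate 2).

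**Figure D3:**
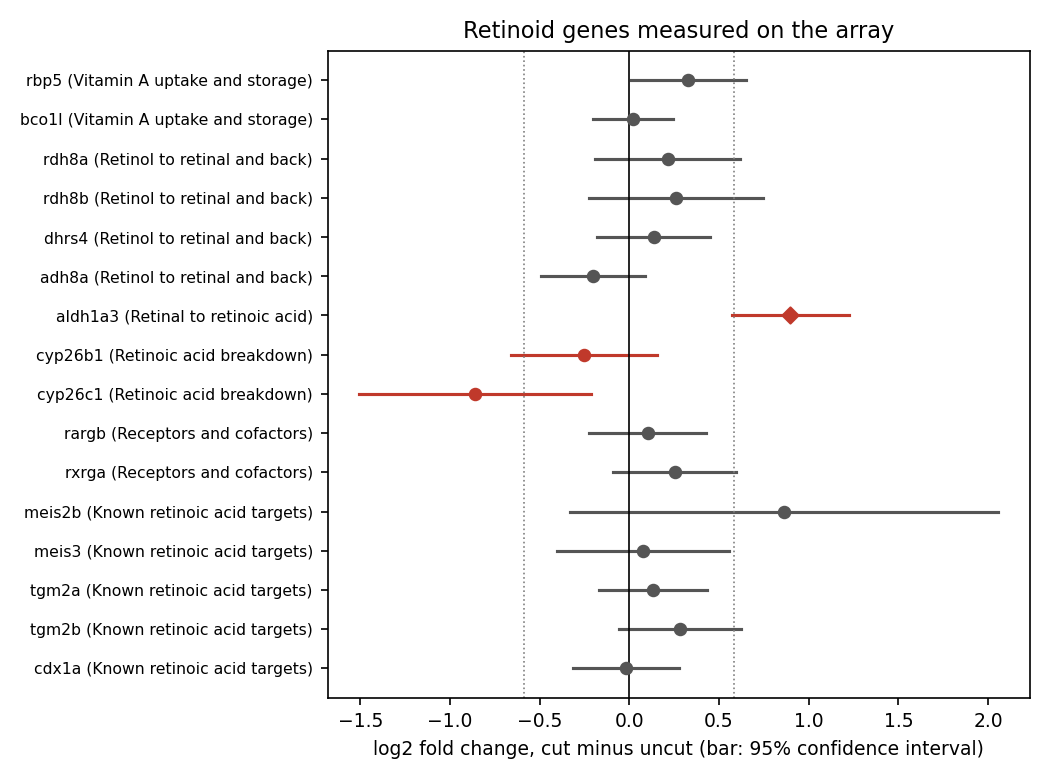
Log2 fold change, cut minus uncut (horizontal axis), with its 95% confidence interval for 16 retinoid genes, by role. Members are red, the other 13 genes grey, the diamond marks a called gene, and dotted lines mark a fold change of 1.5 in each direction. *aldh1a3*, at 0.90, is the 1 called gene, *cyp26c1* is lowest at -0.86, and *meis2b* has the widest interval.

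Marker genes of other tissues were set beside these values, since aldehyde dehydrogenases and Cyp26 enzymes are also made in the eye and the brain. The median of 23 measured lens genes (of 66 listed) was 7.15 to 11.74 in cut arrays and 6.72 to 7.15 in uncut arrays, with 11.74 in cut replicate 3 and 8.41 in cut replicate 5. The median of 3 photoreceptor and retina genes (of 27) was 5.30 to 7.22 in cut arrays and 5.38 to 5.59 in uncut arrays, and *prss59.1*, the 1 measured gene of 15 for exocrine pancreas, was 8.67 to 11.62 in cut arrays and 8.62 to 9.28 in uncut arrays. Both were highest in cut replicate 3, which was also the highest cut array for *aldh1a3* and for *cyp26c1*. *aldh1a3* was nearly as high in cut replicates 2 and 4, where the lens medians were 7.16 and 7.15. It was lower in cut replicate 1 (6.76), where the lens median was 7.26, and in cut replicate 5 (6.87), where it was 8.41. The order of arrays depends on the lens score. By the mean of the 23 lens genes, the groups overlapped. Cut replicates 1 and 2 (7.15 and 7.36) lay below uncut replicates 2, 3 and 4 (7.52, 7.46 and 7.51). Cut replicates 3, 4 and 5 (9.90, 7.60 and 8.37) lay above every uncut array. By the lens mean, cut replicates rose in the order 1, 2, 4, 5 and 3, and by *aldh1a3* in the order 1, 5, 2, 4 and 3. Without cut replicate 3 the log2 fold change of *aldh1a3* was 0.84 (adjusted p = 0.0849 from limma), and without cut replicates 3 and 5 it was 0.90 (adjusted p = 0.122). With the mean of the lens genes as a covariate it was 0.83 (adjusted p = 0.103), and in both of these fits the call was lost. Whether tissue from outside the tail had a part in the rise was not tested. The log2 fold change of *cyp26c1* was -0.83 without cut replicates 3 and 5. For 3 brain genes (of 21), the median was 7.74 to 8.35 in cut arrays and 7.24 to 8.24 in uncut arrays. One of them, *stmn2b*, was 10.36 in cut replicate 3 and 8.18 to 8.41 in the other cut arrays, against 8.27 to 8.51 in uncut arrays. The others did not stand apart in cut replicate 3. There *slc17a6b* was 8.18, within the 7.74 to 8.35 of the other cut arrays, and *slc17a6a* was 7.15, within 6.62 to 7.21.

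The macrophage genes *mfap4.1* and *csf1ra* were the 2 measured of 9 listed. Their median was 8.57 to 9.58 in cut arrays and 7.75 to 8.19 in uncut arrays, without overlap. Of single transcripts, 2.83% had every cut array above every uncut array, and no such share was taken for medians of 2 genes. For *csf1ra* alone the groups overlapped, since cut replicate 1 had 6.41, below 6.52 and 6.65 in uncut replicates 2 and 3. Their log2 fold changes were 1.59 (SE 0.35, adjusted p = 0.121) for *mfap4.1* and 0.32 (SE 0.15, adjusted p = 0.425) for *csf1ra*, so neither was called. Their part in the rise of *aldh1a3* was not tested. In whole tissue, fewer cells of a type and less RNA per cell cannot be told apart, and the arrays do not locate a transcript within the tail.

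The tail origin could be checked with few genes. *hoxc13b*, a *Hox* gene of the posterior body and the 1 measured of 27 listed tail genes, was 10.67 to 11.14 in cut arrays and 10.44 to 10.82 in uncut arrays. The muscle actin gene *acta1b*, the 1 measured of 16, was 12.86, 12.34, 13.16, 11.67 and 12.35 in cut replicates 1 to 5, against 12.79, 11.12, 12.03 and 10.92 in uncut replicates 1 to 4. Uncut replicates 2 and 4, with the lowest *acta1b* of all arrays, had the highest *cyp26c1* of all arrays. The other arrays did not follow this order. Among cut arrays, replicates 1 and 3 had the highest *acta1b* and also the highest *cyp26c1* (9.20 and 9.28). Uncut replicate 1 was above uncut replicate 3 in both genes (9.55 against 9.18 for *cyp26c1*). The part of muscle content in the *cyp26c1* values was not tested.

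**Figure D4:**
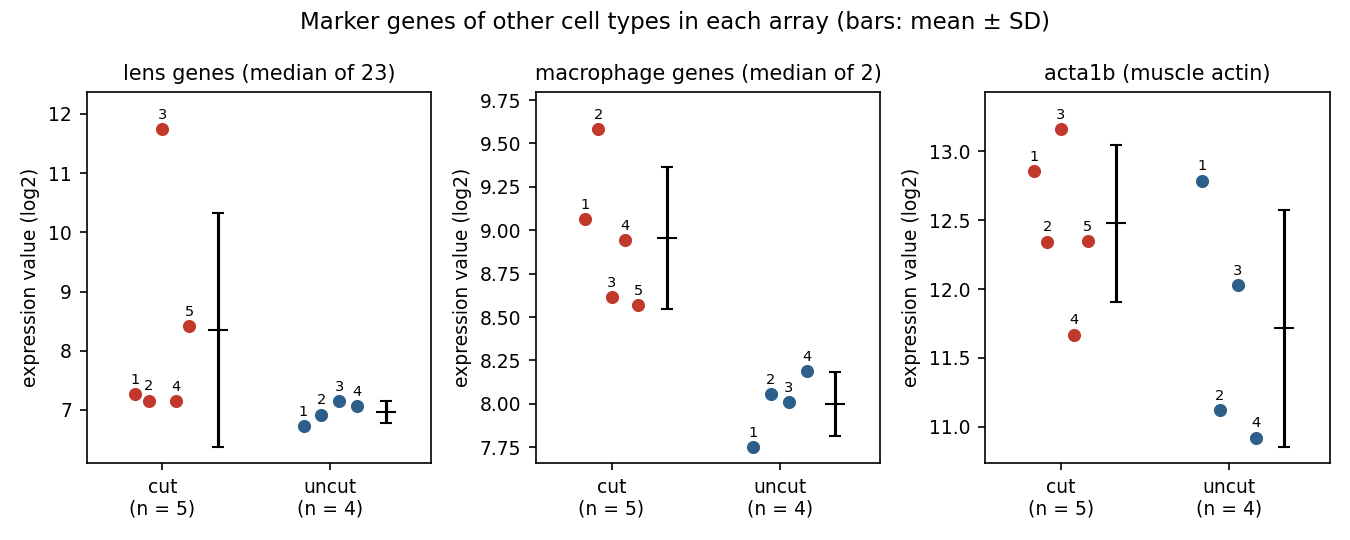
Log2 expression value (vertical axes) of marker genes of other cell types in 5 cut and 4 uncut arrays: the median of 23 lens genes, the median of 2 macrophage genes, and *acta1b*. Points are arrays with their replicate number, and bars are the mean ± SD. Lens genes reach 11.74 in cut replicate 3, and the macrophage median is higher in all cut arrays.

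The transcripts whose pattern over the 9 arrays was most like that of each member were searched among the 2660 others with an assigned gene. Pearson's r and Spearman's rho are given as a description, over arrays that share the amputation. For *aldh1a3* they were *stard10*, which encodes a lipid transfer protein (r = 0.91, rho = 0.77), *zswim7* (r = 0.90, rho = 0.92) and *tnni1b*, which encodes a troponin of slow muscle (r = 0.90, rho = 0.80). Of these, *stard10* and *tnni1b* were themselves called higher in cut tails. For *cyp26b1* they were *hsd17b7*, which encodes an enzyme of sterol synthesis (r = 0.81, rho = 0.53), *zgc:165555* (r = 0.81, rho = 0.53) and the carbonic anhydrase gene *ca15c* (r = 0.80, rho = 0.53). For *cyp26c1* they were the cell polarity gene *crb3b* (r = 0.91, rho = 0.77), *zgc:136872* (r = 0.84, rho = 0.77) and the selenoprotein gene *selenow2b* (r = 0.84, rho = 0.73). Each of the 6 transcripts most like a breakdown gene also had its highest value in uncut replicate 2, as the breakdown genes did. With the group means taken out, the r of the 3 transcripts most like *aldh1a3* was 0.27, 0.62 and 0.46, that of the 3 most like *cyp26b1* was 0.84, 0.78 and 0.75, and that of the 3 most like *cyp26c1* was 0.82, 0.71 and 0.71.

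**Figure D5:**
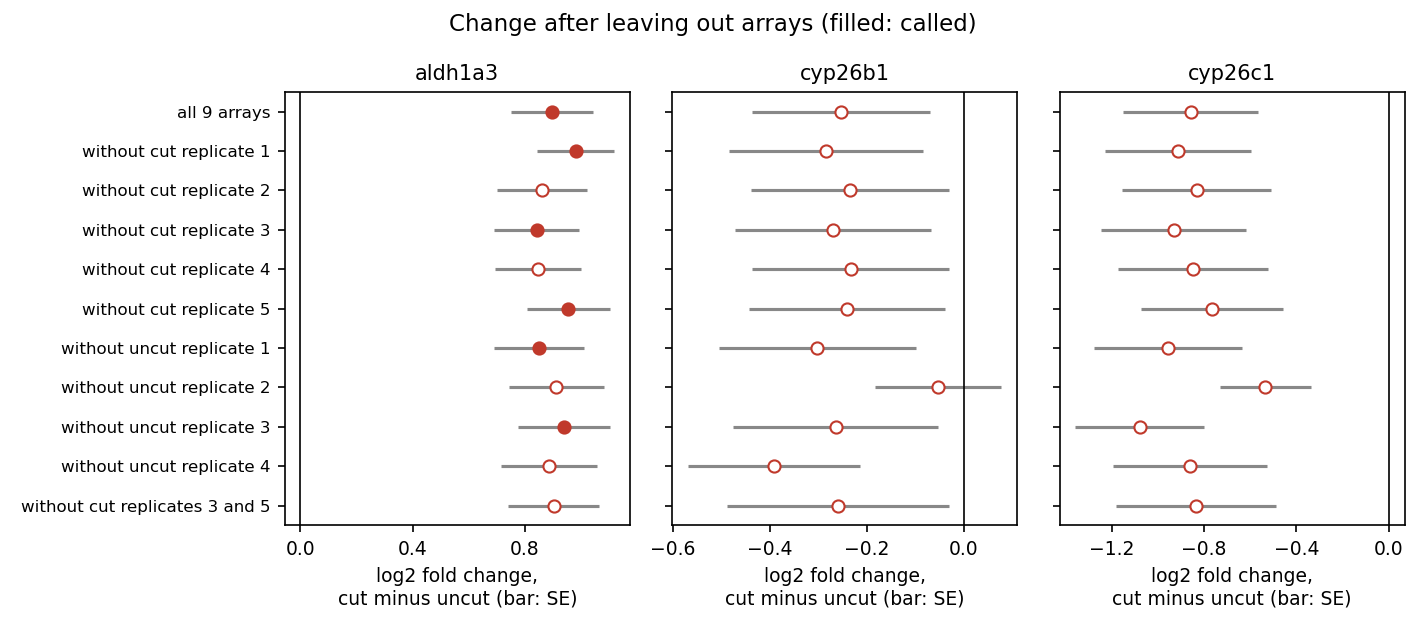
Log2 fold change, cut minus uncut (horizontal axes, a scale of its own for each gene), with its SE for *aldh1a3*, *cyp26b1* and *cyp26c1* over all 9 arrays, with each array left out in turn and without cut replicates 3 and 5. Filled points are called. *aldh1a3* stays between 0.84 and 0.98 and is called in 5 of the 9 cases with 1 array left out, and both breakdown genes lie nearest to 0 without uncut replicate 2.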

How the data were processed

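RNA of posterior tissues was measured on 9 arrays, 5 cut and 4 uncut. The authors compiled the signals with NimbleGen software. In ArrayStar (version not given in the sources used here) they corrected background by RMA and normalized between arrays, a step named quartile normalization in the paper. The deposited log2 values, 1 per transcript and array, ran from 3.17 to 15.99, with array medians of 8.54 to 8.63, and were used as provided. How probes were summarized is not described. Genes were assigned through RefSeq mRNA identifiers in the annotation of GRCz12tu, used for names only: 2663 of 3055 identifiers matched.

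Groups were compared in R 4.3.3 with limma 3.58.1 over all 37176 transcripts, with no covariate beside the condition and with Benjamini-Hochberg adjustment. On simulated data built from these arrays, the fit was checked to recover known changes. Permutation tests of single genes were exact and two-sided. The arrays give no depth per sample, and their number limits the precision. Alternatives were a replicate block, other normalizations, filters, variance models, weights, an offset of 50, other thresholds, the lens covariate and arrays left out. Values of the 13 other retinoid genes under these alternatives were added after seeing the data. Members and gene lists were chosen with earlier results of these data known. Named are the members, the measured retinoid genes, the 3 assigned transcripts most like each member, and markers. Liver genes (9 listed) had no assigned transcript.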

Additional observations from a re-analysis of the deposited data

Results flagged for a closer look

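A sample far from the rest of its group (Dixon's test) was found in 7 of 54 groups of arrays tested, where chance gives 2.7. None was a value of *aldh1a3*, *cyp26b1*, *cyp26c1* or their differences.

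Cut replicate 3 had the highest value of *meis2b*, at 11.77 against 8.76 to 9.18 in the other cut arrays, of the lens median, at 11.74 against 7.15 to 8.41, and of the median of photoreceptor and retina genes, at 7.22 against 5.30 to 5.85. Cut replicate 5 had 6.74 for *bco1l*, where the other cut arrays had 6.50 to 6.52. Uncut replicate 1 had 7.28 for *meis3*, where the other uncut arrays had 6.73 to 6.82, and 7.24 for the median of brain genes, where they had 8.20 to 8.24. Over all transcripts, cut replicate 1 had a median of 8.59, where the other cut arrays had 8.62 to 8.63.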

How the results depend on the processing

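*aldh1a3* kept its sign in all 22 alternatives that could give a value, at 0.60 (offset of 50) to 0.98 with adjusted p of 0.00513 to 0.165; both filters on low transcripts leave it out. It was not called without cut replicates 3 and 5 (0.90, adjusted p = 0.122 from limma). The call was also lost with the lens mean as a covariate (0.83, adjusted p = 0.103 from limma). By construction, it was lost at a fold of at least 2 (0.90). With single arrays left out, *aldh1a3* ran from 0.84 to 0.98 and was called in only 5 of 9 cases. *cyp26c1* was called with array weights (-1.06); over its alternatives it ran from -1.08 to -0.54 with adjusted p of 0.0589 to 0.585. *cyp26b1* was called in none of 24, at -0.39 to -0.053, with adjusted p of 0.530 to 0.949. The difference of *aldh1a3* against the mean of both breakdown genes ran from 1.13 to 1.61.

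Transcripts higher numbered 174, and 377 with the replicate block, 1371 with array weights, 97 without cut replicates 3 and 5, 90 at an adjusted p of at most 0.05 and 96 at a fold of at least 2, and 47 (without uncut replicate 2 or 4) to 326 (without uncut replicate 3) with arrays left out. Lower ones numbered 85, and 297, 1257, 17, 29 and 32 in the same order, 143 with the lower 50% left out, 35 with the lens covariate, and 7 (without uncut replicate 4) to 544 (without uncut replicate 3) with arrays left out. Where not by construction, the cause was not tested. *bco1l* reversed to -0.028 with the block, -0.026 with quantile normalization, -0.034 with centering and -0.028 without cut replicates 3 and 5, with a range of -0.028 to 0.043 over arrays left out. *meis3* reversed to -0.027 without cut replicates 3 and 5 and -0.061 with the lens covariate, and ran from -0.084 to 0.20. *cdx1a* ran from -0.10 to 0.039 over arrays left out, reversed in 5 of these 9 cases, and from -0.14 to 0.039 over all 18 alternatives. The counts of 0 among other retinoid genes held in all 23 alternatives.

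In the fit with a replicate block (8 arrays), *aldh1a3* was called (0.96, adjusted p = 0.0412), and no call of a member changed. Nothing states that numbers pair the arrays, and same-numbered arrays correlated at 0.58, 0.091, 0.25 and 0.32 in their deviations from the group means, with 1 of the 4 below the limit of 0.1; over the 8 arrays alone it was 0.59, 0.21, 0.24 and 0.35. The best match of an array was the array of its own number for 7 of 8 in the first version and 8 of 8 in the second. The main fit took no account of the numbers, so its p-values would not reflect a batch shared by number.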
